A study of Mus musculus with 8 samples.

Results

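The GIMAP proteins (GTPases of immunity-associated proteins) are a family of GTP-binding proteins, and in the mouse their genes lie side by side in one cluster. The 8 family members *Gimap1*, *Gimap3*, *Gimap4*, *Gimap5*, *Gimap6*, *Gimap7*, *Gimap8* and *Gimap9* were taken by gene symbol from a table of 47729 genes. All 8 were among the 14706 genes that reached 1 RPM (reads per 1000000 reads on genes) in 2 or more of the 8 libraries, which were the genes tested. RNA was sequenced from grafts of 2 tumor lines, the melanoma B16 and the Lewis lung carcinoma (LLC), grown under the skin of the back of WT or *Ccrl2* KO mice, with 2 libraries in each of the 4 groups. B16 (B16-F0) and LLC are transplantable C57BL/6 lines, the hosts were syngeneic C57BL/6J mice, and all tumors are labelled as 5 days after the graft. Another description of these tumors puts B16 at day 3 and LLC at day 5, and if it holds, tumor line and day cannot be told apart wherever LLC and B16 are compared. *Ccrl2* codes for an atypical receptor that binds chemerin without signaling. It was deleted in the hosts only, so the grafted cells of every group carried an intact *Ccrl2*. RNA of 3 tumors was pooled for every library, and p-values therefore measure the spread between pools. Mice were 6 to 12 weeks old unless stated otherwise, and the sex of the hosts of these tumors is not given in the sources used here. The comparisons ask whether GIMAP transcripts differed between KO and WT hosts in each tumor, whether this difference was itself different between the tumors, and whether the tumors differed from each other.

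GIMAP proteins bind GTP through an AIG1-type domain and many of them sit on intracellular membranes. They are best known from lymphocytes, where the loss of some members shortens the life of T cells and other lymphocytes, and several members are also expressed in vascular endothelium. Transcripts of the family in a tumor can therefore come from lymphocytes that enter it, from its blood vessels, or from both. In bulk tumor RNA, fewer cells of a type and less RNA per cell cannot be told apart.

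The cluster spans 123.6 kb of chromosome 6 (GRCm38, 48647234 to 48770851). The order is *Gimap8*, *Gimap9*, *Gimap4*, *Gimap6*, *Gimap7*, *Gimap1*, *Gimap5* and *Gimap3*, with *Gimap6* and *Gimap3* on the minus strand. What makes the members recognizable as GTPases is the phosphate-binding loop (P-loop), in which a glycine is followed after a short spacer by glycine, lysine and serine or threonine. Each loop is shown as its 24 coding bases, taken from the GENCODE M21 transcripts (GRCm38), with the codon of the first glycine and the last 3 codons in capitals.
Gimap8 loop 1, chr6:48650256-48650279, + strand: GGGaaacagggcgcaGGCAAAAGT
Gimap8 loop 2, chr6:48656119-48656142, + strand: GGGaagcgtggtgttGGGAAAAGT
Gimap8 loop 3, chr6:48658746-48658769, + strand: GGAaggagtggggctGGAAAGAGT
Gimap9, chr6:48677523-48677546, + strand: GGGaagactggaaatGGGAAGAGT
Gimap4, chr6:48690421-48690444, + strand: GGAaaaactggagcaGGAAAGAGT
Gimap6, chr6:48702750-48702773, - strand: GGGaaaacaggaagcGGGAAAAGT
Gimap7, chr6:48723524-48723547, + strand: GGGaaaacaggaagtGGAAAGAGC
Gimap1, chr6:48742552-48742575, + strand: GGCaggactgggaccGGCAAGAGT
Gimap5, chr6:48752594-48752617, + strand: GGCaaatctggctgcGGTAAAAGC
Gimap3, chr6:48765887-48765910, - strand: GGCaaatctggctgcGGTAAAAGC

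*Gimap8* carries 3 such loops in 2064 coding bases, and each of the other 7 genes carries 1 loop in 873 to 984 coding bases. The loops of *Gimap5* and *Gimap3* are the same in all 24 bases. These genes are the most alike of the family over their whole coding sequence as well, with 799 of 899 aligned bases identical (88.9%), against 55.8 to 65.6% in the 20 other pairs that do not include *Gimap8*. Their longest identical run is printed next because it bears on how their reads can be counted. It lies at chr6:48765681-48765820 (minus strand) in *Gimap3* and at chr6:48752684-48752823 (plus strand) in *Gimap5*.
Gimap3 and Gimap5 shared coding stretch: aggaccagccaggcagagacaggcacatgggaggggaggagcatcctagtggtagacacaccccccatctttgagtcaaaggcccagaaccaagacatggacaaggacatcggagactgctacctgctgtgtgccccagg

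This run of 140 bases is longer than a read of 100 bases, although the other read of the pair can lie outside it, and the longest run in the other 27 pairs is 17 bases. Windows of 100 bases that the other gene of the pair also holds make up 1.65% of *Gimap3* and 0.966% of *Gimap5*. With the windows that the read-through gene *Gm28053* holds, the share of *Gimap5* is 2.26%. *Gimap1* is less certain. The antisense gene *Gimap1os* and *Gm28053* cover 36.0% of its exon bases, and without a stated strand setting reads of *Gimap1* and *Gimap1os* cannot be told apart. Both were near the bottom of the table, with *Gimap1os* at 0 to 0.4 RPM and *Gm28053* at 0 to 0.1 RPM in the 8 libraries. *Gm28053* also covers 3.48% of the exon bases of *Gimap7* and 3.69% of those of *Gimap5*.

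The 250 bases before the start of each gene were read from RefSeq (GRCm38.p6), where all 8 members matched by symbol. Those of *Gimap6*, *Gimap7*, *Gimap3* and *Gimap9* are shown because these genes stand for the different behaviors described later. Capitals mark matches on either strand to 4 motifs of factors active in lymphocytes or endothelium (ETS, RUNX, GATA and KLF), whose letters are spelled out with their counts.
Gimap6 promoter, chr6:48708245-48708494, - strand: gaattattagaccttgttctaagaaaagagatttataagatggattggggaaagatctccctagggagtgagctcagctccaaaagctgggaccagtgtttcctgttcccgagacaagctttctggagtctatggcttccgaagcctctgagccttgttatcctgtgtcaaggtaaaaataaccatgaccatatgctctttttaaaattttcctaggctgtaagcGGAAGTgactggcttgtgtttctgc
Gimap7 promoter, chr6:48718371-48718620, + strand: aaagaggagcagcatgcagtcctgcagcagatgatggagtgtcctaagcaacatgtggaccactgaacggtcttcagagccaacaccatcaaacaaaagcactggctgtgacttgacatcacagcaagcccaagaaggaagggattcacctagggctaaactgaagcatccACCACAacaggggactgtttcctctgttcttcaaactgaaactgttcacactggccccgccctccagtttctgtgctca
Gimap3 promoter, chr6:48770852-48771101, - strand: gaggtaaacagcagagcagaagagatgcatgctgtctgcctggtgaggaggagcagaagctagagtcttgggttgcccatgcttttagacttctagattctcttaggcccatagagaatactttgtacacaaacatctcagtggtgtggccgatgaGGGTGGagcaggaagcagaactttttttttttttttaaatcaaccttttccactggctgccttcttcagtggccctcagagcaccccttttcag
Gimap9 promoter, chr6:48675885-48676134, + strand: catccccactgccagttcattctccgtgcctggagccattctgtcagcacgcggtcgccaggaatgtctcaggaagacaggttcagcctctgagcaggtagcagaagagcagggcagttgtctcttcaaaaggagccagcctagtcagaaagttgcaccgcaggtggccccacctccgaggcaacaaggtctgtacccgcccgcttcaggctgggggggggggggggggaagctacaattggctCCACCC

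The ETS letters, GGAAGT, occurred before *Gimap6* and *Gimap5* (2 of 8 genes, against 19.9% of 27025 promoters of the same length). The RUNX letters, TGTGGT, occurred before *Gimap4*, *Gimap7* and *Gimap1* (3 of 8, against 14.2%). The KLF letters, CCACCC, occurred before *Gimap9*, *Gimap4*, *Gimap5* and *Gimap3* (4 of 8, against 27.6%). The GATA letters, AGATAA, occurred before none of the 8 genes, against 10.2% of all promoters. No motif was shared by all the members, and a match describes letters, not binding.

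The libraries held between 17.6 and 30.84 M reads on genes by estimate (M, 1000000), so that 3 reads corresponded to 0.0973 to 0.17 RPM. The targeted gene gave no check of the host labels, since *Ccrl2* ranged from 3.1 to 4.25 RPM in B16 and from 5.15 to 11.45 RPM in LLC with overlapping hosts in LLC. Melanocyte genes and epithelial keratins separated the tumors as labelled (13817.1 to 17138.4 RPM against 0.35 to 1.2 RPM for the summed melanocyte genes). Some libraries stood apart. B16 WT replicate 1 held 625 RPM of summed skeletal muscle markers, against 1.7 to 3.1 RPM in the other 7 libraries. The Y-linked gene *Ddx3y* was at 31 and 34.9 RPM in the LLC KO pools and at 0 in the other 6 libraries, so that in LLC the host genotype and the sex of the mice cannot be told apart. The same holds for tumor line and sex in KO hosts, and sex enters every comparison that includes the LLC KO pools. LLC KO replicate 1 had fewer endothelial transcripts than replicate 2 (90.5 against 188 RPM summed), and calls in LLC are also given without it.

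Levels differed widely within the family. In B16 WT tumors *Gimap4*, a modulator of T cell apoptosis, was the highest at 7.36 RPM per kb of exon. It was followed by *Gimap6*, a binding partner of the autophagy protein Gabarapl2, at 3.34 RPM per kb, by *Gimap3* at 2.22 RPM per kb and by *Gimap9* at 2.15 RPM per kb. *Gimap8*, the largest member, and *Gimap1*, which mature lymphocytes of the mouse need for their survival, were both at 1.11 RPM per kb. *Gimap7* was at 0.516 RPM per kb and *Gimap5*, whose loss leads to lymphopenia in the rat and the mouse, at 0.5 RPM per kb. The values of single pools overlapped between *Gimap3* and *Gimap9*, between *Gimap8* and *Gimap1*, and between *Gimap7* and *Gimap5*, so that these neighbors in the order did not differ beyond their spread. The order of the group means in LLC WT tumors was the same, from 8.02 RPM per kb for *Gimap4* to 0.452 RPM per kb for *Gimap5*. Its single pools differed in order. *Gimap9* (3.78 RPM per kb) was above *Gimap3* (3.12) in the first LLC WT pool, and *Gimap7* (0.323) was below *Gimap5* (0.41) in the second. In LLC KO tumors the pools did not share an order either. *Gimap9* was at 2.59 and 2.68 RPM per kb and *Gimap4* at 0.708 and 2.97 RPM per kb, so that *Gimap9* was above *Gimap4* in the first pool and below it in the second. *Gimap3*, at 0.31 and 0.213 RPM per kb, and *Gimap8*, at 0.122 and 0.459 RPM per kb, also changed places between the pools. *Gimap7* was at 0.0645 and 0.043 RPM per kb, which overlapped with *Gimap1* (0.0325 and 0.358) and *Gimap5* (0.0362 and 0.229 RPM per kb).

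**Figure D1:**
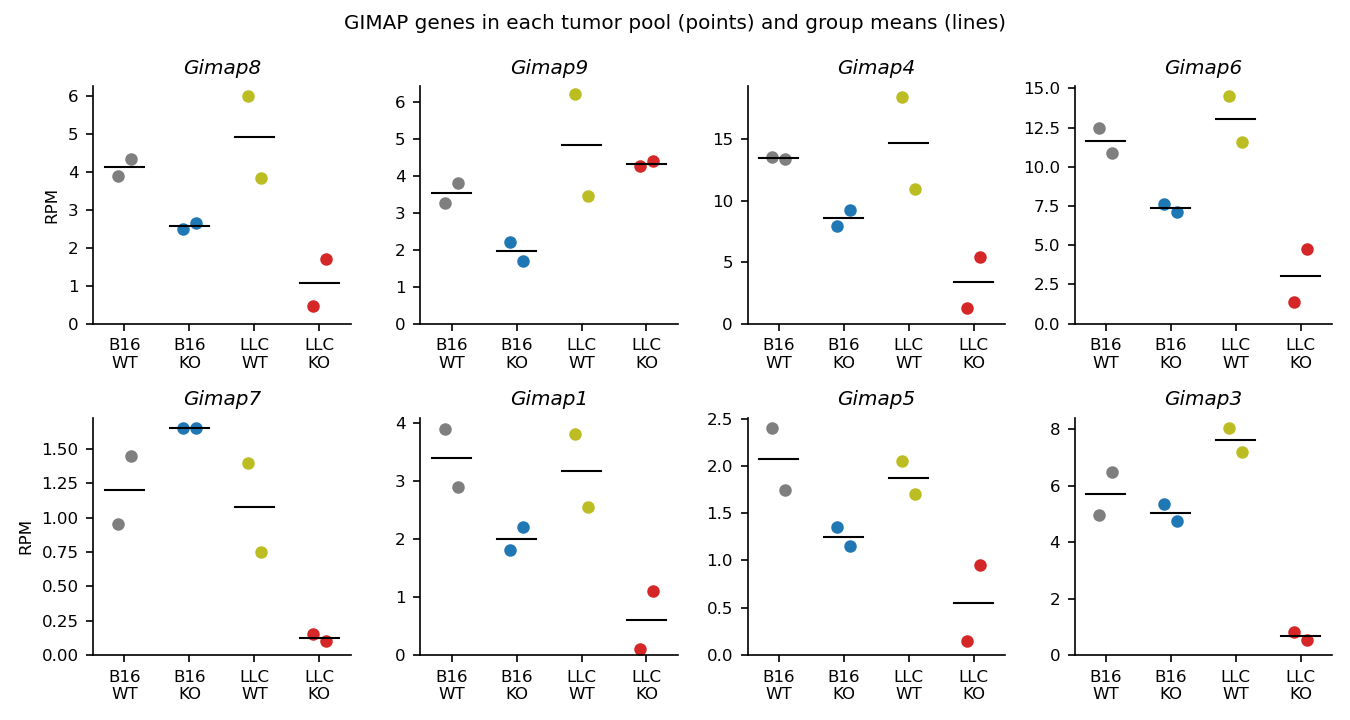
Level of each GIMAP gene (RPM, y axes from 0) in the 2 pools of each group (points) with the group mean (line), in the order of the genes on chromosome 6. The LLC KO points lie below both LLC WT points for 7 genes, an arrangement shown by 42.0% of all genes, and *Gimap9* is the exception with 4.25 and 4.4 RPM between the LLC WT values of 6.2 and 3.45 RPM.

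In LLC tumors, transcripts of 7 of the 8 GIMAP genes were lower in *Ccrl2* KO than in WT hosts. The decrease was deepest in *Gimap3* and was shared by *Gimap1*, *Gimap4*, *Gimap5*, *Gimap6*, *Gimap7* and *Gimap8*, and *Gimap9* did not pass the test. Of all genes tested, 23.1% were lower and 15.1% higher in this comparison. The median log2 difference of the 8 members was -1.88, against -0.095 over all genes. Both KO pools lay below both WT pools in the same 7 members, as in 42.0% of all genes.

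*Gimap3*, whose product influences the segregation of mitochondrial DNA in mouse leukocytes, was at 8.05 and 7.2 RPM in the LLC WT pools and at 0.8 and 0.55 RPM in the KO pools. All WT values were far above all KO values, and the means were 7.62 ± 0.601 and 0.675 ± 0.177 RPM (SD, n = 2), an 11.3-fold difference. The log2 difference was -2.80 ± 0.19 (SE; limma, adjusted p = 0.000254), which is 6.94-fold on values with 0.5 RPM added. *Gimap7*, whose human counterpart activates the GTPase GIMAP2, was at 1.4 and 0.75 RPM in the WT pools and at 0.15 and 0.1 RPM in the KO pools, and these KO values correspond to about 3 and 2 reads. Counted over both pools, 5 reads in KO against 64 in WT gave a KO to WT ratio of 0.123 (0.0387 to 0.303, exact 95% interval for counting error only). The fitted log2 difference of *Gimap7* was -1.30 ± 0.25 (SE; limma, adjusted p = 0.0067), and it depends on the constant added before the logarithm, being -2.64 with 0.05 RPM and -0.53 with 2 RPM in place of 0.5 RPM.

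*Gimap4* was at 18.5 and 10.95 RPM in the LLC WT pools and at 1.3 and 5.45 RPM in the KO pools. The groups did not overlap although the KO pools were far from each other, and the log2 difference was -2.17 ± 0.50 (SE; limma, adjusted p = 0.013). *Gimap6* followed it closely, with 14.5 and 11.6 RPM in WT and 1.35 and 4.75 RPM in KO (log2 difference -2.11 ± 0.41, SE; limma, adjusted p = 0.00756). *Gimap8*, with 6 and 3.85 RPM in WT and 0.45 and 1.7 RPM in KO, fell by 1.88 on the log2 scale (limma, adjusted p = 0.00799). For each of these genes the first KO pool was the lowest of all 8 libraries.

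*Gimap1* was at 3.8 and 2.55 RPM in WT and at 0.1 and 1.1 RPM in KO, which is about 2 reads in the first KO pool. Its KO to WT ratio in reads was 0.174 (0.105 to 0.274, counting error only), and the log2 difference was -1.89 ± 0.43 (SE; limma, adjusted p = 0.0125). *Gimap5* was at 2.05 and 1.7 RPM in WT and at 0.15 and 0.95 RPM in KO, with about 3 reads in the first KO pool and a ratio of 0.284 (0.167 to 0.46). Its log2 difference of -1.29 ± 0.35 (SE; limma, adjusted p = 0.0245) was the least secure of the calls in LLC. *Gimap9* was at 6.2 and 3.45 RPM in WT and at 4.25 and 4.4 RPM in KO. The KO values lay between the WT values, and the log2 difference was -0.09, with a 95% interval from -0.69 to 0.50 (limma, adjusted p = 0.8).

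Without the first LLC KO pool, *Gimap5* was no longer called (-0.71 on the log2 scale, limma, adjusted p = 0.0897), the other 6 genes kept their call (*Gimap3* at -2.95 and *Gimap4* at -1.31), and 1521 in place of 3402 genes were lower over all genes. *Gimap5* also lost its call without either LLC WT pool (limma, adjusted p = 0.0767 and 0.0509). When B16 WT replicate 1 was left out together with LLC KO replicate 1, *Gimap3* was the only member called in LLC (limma, adjusted p = 0.0247), and only 105 genes were lower over all genes. *Gimap6*, *Gimap7*, *Gimap8*, *Gimap1* and *Gimap4* then had adjusted p-values from 0.0534 to 0.0856. With the 4 LLC libraries fitted on their own, 2 members were called, *Gimap3* (limma, adjusted p = 0.0257) and *Gimap7* (limma, adjusted p = 0.0435).

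The LLC KO pools differed from each other in some members and not in others. The level in the second pool was 4.2 times that in the first for *Gimap4* (2.7 to 6.74, exact 95% interval for counting error only), 3.54 times for *Gimap6* (2.27 to 5.68), 3.79 times for *Gimap8* (1.75 to 9.07), 10.8 times for *Gimap1* (2.6 to 95.6) and 6.44 times for *Gimap5* (1.86 to 34.3). For *Gimap3* the ratio was 0.71 (0.288 to 1.66), for *Gimap7* it was 0.758 (0.0633 to 6.61) and for *Gimap9* it was 1.03 (0.746 to 1.42), and these intervals all include 1. This look at single pools was added after the data had been seen. The endothelial genes *Pecam1* and *Cdh5* were also higher in the second pool, with ratios of 8.65 (6.31 to 12.1) and 11.6 (7.31 to 19.4). Both intervals lie above that of *Gimap6*. The endothelial marker *Eng* differed little, at 63.2 and 71.05 RPM in the first and second pool. The summed T cell markers were at 3.1 and 5.85 RPM in the first and second LLC KO pool, and the summed NK cell markers at 9.45 and 15.8 RPM. *Lck*, a kinase of T cells, and *Prf1*, the perforin gene of cytotoxic cells, had ratios of 2.08 (0.987 to 4.62) and 1.85 (0.954 to 3.68). The interleukin receptor chain *Il2rb* had a ratio of 1.44 (0.918 to 2.28). For the granzyme gene *Gzmb* the ratio was 1.62 (1.09 to 2.42), an interval that excludes 1. These intervals compare 2 libraries and not conditions.

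In B16 tumors no GIMAP gene passed the test between *Ccrl2* KO and WT hosts, and neither did any of the 14706 genes (limma, 0.0%). Without adjustment, 1442 genes (9.81%) were under 0.05, and *Gimap9* was the only member among them (limma, adjusted p = 0.472). *Gimap9* was at 3.25 and 3.8 RPM in WT and at 2.2 and 1.7 RPM in KO, a log2 difference of -0.72 ± 0.26 (SE). The other values can be given as a description. *Gimap4* reached 13.6 and 13.45 RPM in WT hosts and 7.95 and 9.25 RPM in KO, and *Gimap6* was at 12.45 and 10.9 RPM in WT and at 7.65 and 7.1 RPM in KO. *Gimap8* was at 3.9 and 4.35 RPM against 2.5 and 2.65 RPM. *Gimap1* was at 3.9 and 2.9 RPM against 1.8 and 2.2 RPM, and *Gimap5* at 2.4 and 1.75 RPM against 1.35 and 1.15 RPM. In these 5 genes and in *Gimap9*, both KO pools lay below both WT pools, as in 31.1% of all genes.

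The log2 differences of *Gimap4*, *Gimap6*, *Gimap8*, *Gimap1* and *Gimap5* in B16 ranged from -0.63 to -0.55, with adjusted p-values of 0.62 to 0.69 (limma). *Gimap3* reached 4.95 and 6.5 RPM in WT hosts and 5.35 and 4.75 RPM in KO, and the groups overlapped (log2 difference -0.16, 95% interval -0.60 to 0.29). *Gimap7* was at 0.95 and 1.45 RPM in WT and at 1.65 RPM in both KO pools. It was the only member with both KO pools above both WT pools, as in 16.1% of all genes (log2 difference 0.35, 95% interval -0.22 to 0.93). The median of the 8 members in B16 was -0.61, against -0.051 over all genes.

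**Figure D2:**
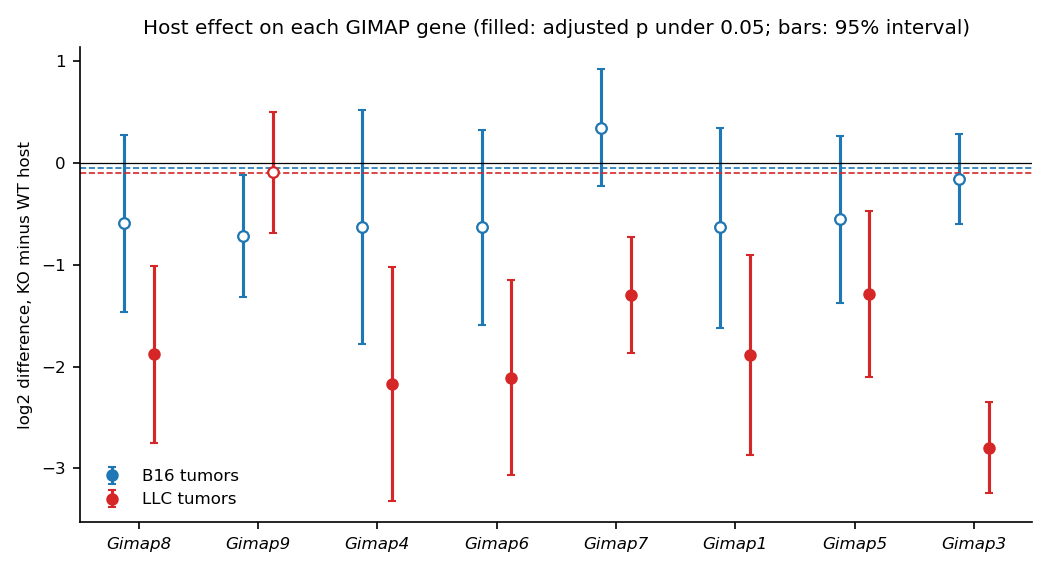
Log2 difference between *Ccrl2* KO and WT hosts (y axis) for each GIMAP gene in B16 (blue) and LLC (red) tumors, with 95% intervals from limma. Filled symbols passed the test and dashed lines give the median over all genes. The filled symbols are the 7 genes lower in LLC, from -1.29 for *Gimap5* to -2.80 for *Gimap3*, and none is filled in B16.

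The host difference was itself tested between the tumors. It was more negative in LLC than in B16 for *Gimap3*, by 2.64 ± 0.27 on the log2 scale (SE; limma, adjusted p = 0.00353), and for *Gimap7*, by 1.66 ± 0.35 (SE; limma, adjusted p = 0.0244), while 7.05% of all genes were called in this direction and 8.15% in the other. For *Gimap4*, *Gimap6*, *Gimap8* and *Gimap1* the differences of -1.54, -1.49, -1.29 and -1.25 did not pass (limma, adjusted p = 0.121 to 0.187), and for *Gimap5* the value was -0.74 (limma, adjusted p = 0.332). *Gimap9* had the opposite sign (0.63, limma, adjusted p = 0.263). The call of *Gimap3* was kept when any single library was left out (-2.82 to -2.46). That of *Gimap7* was lost for 6 of the 8 libraries (-1.96 to -1.36, limma, adjusted p up to 0.0856), including both LLC KO pools. Without the second LLC KO pool 5 members were called. Without the first pool of B16 WT and of LLC KO neither was called (*Gimap3* -2.61, limma, adjusted p = 0.137; *Gimap7* -1.5, limma, adjusted p = 0.222). The day after the graft, where the descriptions differ, cannot be told apart from the tumor line in this difference. Sex enters this difference as well, since *Ddx3y* was read only in the LLC KO pools.

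Averaged over both tumors, 6 members were lower in KO hosts, from -0.92 for *Gimap5* to -1.48 for *Gimap3* (limma, adjusted p = 0.00182 to 0.0366), and 14.9% of all genes were lower and 8.12% higher. The average of *Gimap3* joins -2.80 in LLC with -0.16 in B16, so it does not describe a decrease common to both tumors. No member was called in B16, where the median of the 8 members was -0.61, against -1.88 in LLC. *Gimap7* (-0.47, limma, adjusted p = 0.0843) and *Gimap9* (-0.41, limma, adjusted p = 0.137) did not pass. With 0.05 RPM in place of 0.5 RPM added before the logarithm, *Gimap7* was called (-1.08, limma, adjusted p = 0.034) and *Gimap1* (limma, adjusted p = 0.058) and *Gimap5* (limma, adjusted p = 0.0693) were not. Leaving out any of the 4 B16 pools left *Gimap3* as the only member called, and without B16 WT replicate 1 and LLC KO replicate 1 no member was.

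The tumors were also compared with each other within each host. In WT hosts no member was called between LLC and B16 (limma), with log2 differences of -0.13 to 0.39 and no unadjusted p under 0.05, although 35.7% of all genes were higher and 32.0% lower in LLC. The interval for *Gimap3*, the member with the largest value, ran from -0.05 to 0.84. In KO hosts 6 members were lower in LLC than in B16, against 34.8% of all genes. *Gimap3* fell by 2.25 on the log2 scale (limma, adjusted p = 2.5e-05) and *Gimap7* by 1.78 (limma, adjusted p = 0.000342), and *Gimap4*, *Gimap1*, *Gimap6* and *Gimap8* fell by 1.47, 1.35, 1.34 and 1.09 (limma, adjusted p = 0.0201 to 0.0307). *Gimap9* was higher in LLC, by 0.99 (limma, adjusted p = 0.00934), where 35.4% of all genes were higher. This call was lost without the second B16 KO pool (0.84, limma, adjusted p = 0.0609) and without the first pools of B16 WT and LLC KO (1.01, limma, adjusted p = 0.0694). Without either B16 KO pool, 2 members were lower in LLC of KO hosts, *Gimap3* and *Gimap7*, and without the first LLC KO pool 3 were. The comparisons within WT and KO hosts were added after the data had been seen, and they share their libraries with the host comparisons. Within KO hosts, tumor line and the sex of the mice cannot be told apart. Averaged over hosts, *Gimap3* (-0.93, limma, adjusted p = 0.000361) and *Gimap7* (-0.95, limma, adjusted p = 0.00124) were lower and *Gimap9* (0.67, limma, adjusted p = 0.00964) higher in LLC, with 37.7% and 39.9% of all genes lower and higher.

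The decrease in LLC did not follow position in the cluster. *Gimap9* lies 28.9 kb from the left end, between *Gimap8* and *Gimap4*, which both fell. The nearest genes outside the cluster that were tested are *AI854703*, *Zfp775* and *Repin1* on the left, and *Tmem176b* and *Tmem176a* on the right, the last pair coding for related membrane proteins of myeloid cells. In LLC, *Repin1* was lower in KO hosts (-0.69, limma, adjusted p = 0.0137), at 43.5 and 31 RPM in WT and 24.45 and 20.85 RPM in KO. *AI854703* (-0.83, limma, adjusted p = 0.0574) and *Zfp775* (-0.43, limma, adjusted p = 0.0735) did not pass. *Tmem176b* and *Tmem176a* had differences of -0.04 and -0.02 (limma, adjusted p = 0.834 and 0.924), with 95% intervals within -0.38 and 0.33. *Tmem176b* was at 121.7 and 131.2 RPM in WT and at 103.1 and 145.7 RPM in KO, so that its hosts overlapped. None of these genes was called in B16, and the remaining flanking genes were at or near 0 or were not tested.

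**Figure D3:**
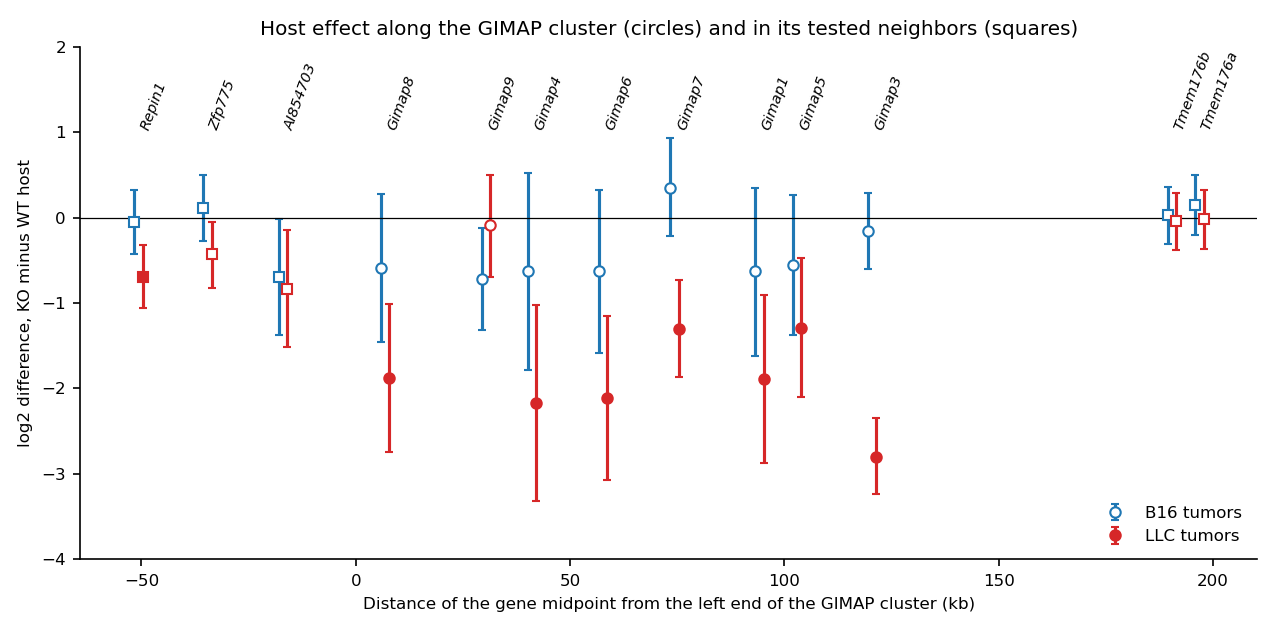
Log2 difference between *Ccrl2* KO and WT hosts (y axis, 95% intervals from limma) against the distance of each gene from the left end of the GIMAP cluster in kb (x axis), for B16 (blue) and LLC (red). Circles are GIMAP genes, squares are neighbors and filled symbols passed the test. The low LLC values end at the *Tmem176* pair on the right, at -0.04 and -0.02, and *Gimap9* at -0.09 interrupts them inside the cluster.

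Markers of the cell types that could carry the family moved with it in LLC, while in B16 their medians differed in sign and none was called. In LLC, 8 of 8 NK cell markers were lower in KO hosts (median log2 difference -1.38), as were 7 of the 8 T cell markers tested out of 13 (median -1.34) and 16 of 19 blood endothelial markers (median -2.73), against 23.1% of all genes lower and a median of -0.095 over all genes. Without the first LLC KO pool 4 NK cell, 4 T cell and 13 endothelial markers were lower, and without that pool and the first B16 WT pool 1, 0 and 3 were. Without the first LLC WT pool 9 endothelial markers were lower, and 8 were without a filter. With LLC fitted alone, 6 NK cell, 6 T cell and 3 endothelial markers were lower. Of 9 macrophage markers 1 was higher (*Mrc1*, 0.65, limma, adjusted p = 0.0182), and 1 lower (*Csf1r*, -0.93, limma, adjusted p = 0.0212), with a median of -0.07. Neither was called without the first LLC KO pool or without a filter, the higher call was also lost without the second LLC WT or LLC KO pool, and the lower one with LLC fitted alone. Of 5 pan-leukocyte markers, 2 were lower (median -0.42), and 0 were without the second LLC WT pool, without the first LLC KO pool, without a filter or with LLC alone. In B16 no marker of these lists was called (limma), and unadjusted p-values under 0.05 were found for 6 of the 19 endothelial markers and for 0 of the 8 NK cell and 0 of the 8 T cell markers, against 9.81% of all genes. There the median was -1.37 for blood endothelial markers, -0.19 for NK cell markers and 0.2 for T cell markers. The members in B16 were at -0.63 to -0.55 for *Gimap4*, *Gimap6*, *Gimap8*, *Gimap1* and *Gimap5*, and at -0.16 for *Gimap3*. *Gimap7* was at 0.35 and *Gimap9* at -0.72, although *Gimap9* was at only -0.09 in LLC. B cell markers were close to the floor, with 3 of 8 tested and sums of 2.55 to 9.3 RPM. *Pax5*, among these 3, reached 1 RPM only in the LLC WT pools (1.45 and 1 RPM). The filter therefore favored a decrease of *Pax5* in LLC in advance. In LLC 2 of the 3 were lower (median -0.81), and 1 was without the first LLC WT or LLC KO pool, without a filter, with LLC alone or with 0.05 RPM added. Without the first pools of B16 WT and LLC KO, no marker of the macrophage, pan-leukocyte and B cell lists was called.

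The summed GIMAP level was 45.4 and 45.1 RPM in B16 WT, 30.4 and 30.5 RPM in B16 KO, 60.5 and 42 RPM in LLC WT, and 8.55 and 19 RPM in LLC KO. The sum of the 19 blood endothelial markers was 420 and 337 RPM, 265 and 246 RPM, 511 and 416 RPM, and 90.5 and 188 RPM in the same order. *Eng*, a receptor of endothelial cells that other cells also express, made up 22.8 to 69.8% of this sum. The GIMAP sum amounted to 9.44 to 13.4% of the endothelial sum with *Eng* and to 14 to 35.2% without it, a look added after the data had been seen. Without *Eng*, the endothelial sum was 268 and 202 RPM in B16 WT, 106 and 86.4 RPM in B16 KO, 394 and 301 RPM in LLC WT, and 27.4 and 117 RPM in LLC KO. Against the summed T cell markers (3.1 to 22.6 RPM) the GIMAP sum ranged from 134 to 325%. Against NK cell markers (9.45 to 83.9 RPM) it ranged from 48 to 121%, and against macrophage markers (1125.8 to 3448.9 RPM) from 0.317 to 3.21%. *Gimap4* and *Gimap6* made up 15.2 to 30.6% and 15.8 to 27.6% of the GIMAP total. *Gimap9*, at 5.58 to 10.2% in the other 6 libraries, made up 49.7 and 23.2% in the LLC KO pools and was the largest share in the first of them. In the first LLC KO pool 4 of 13 T cell and 3 of 19 endothelial markers were at 0. Of the T cell markers, *Cd3d* and *Cd3e* were at 0 to 1.45 and 0 to 0.65 RPM, and *Lck* was at 0.6 to 5.65 RPM. Of the endothelial markers, *Pecam1* and *Cdh5* were at 2.2 to 71.2 and 1 to 51.35 RPM, and *Sox17* was at 0 to 2.85 RPM. Levels thus differed widely within each list, and single markers do not rank the cell types. The part of either cell type in the GIMAP values was not tested.

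**Figure D4:**
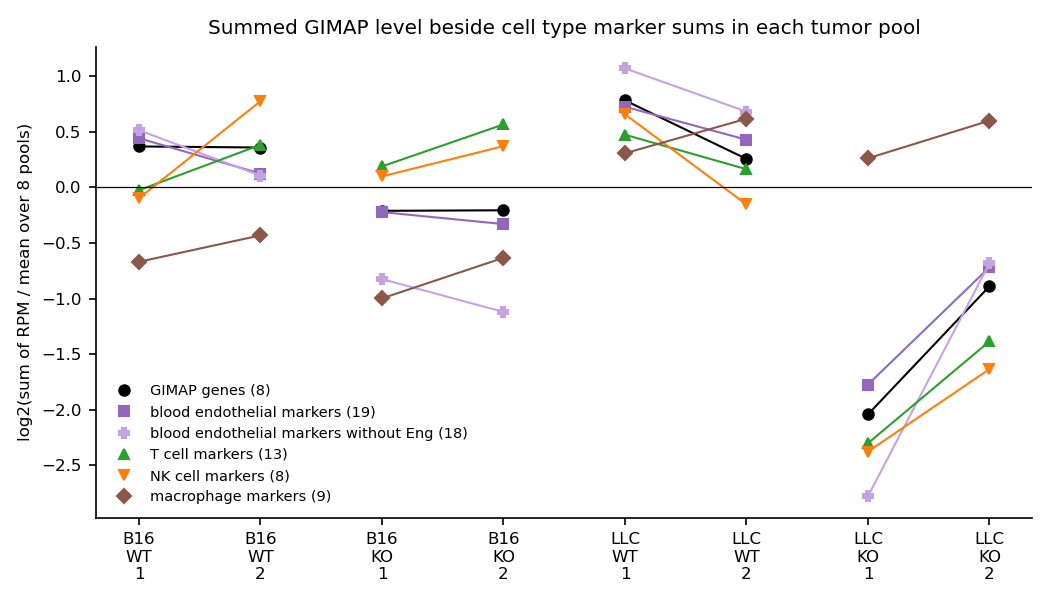
Summed RPM of the 8 GIMAP genes, of 4 marker lists and of the endothelial list without *Eng*, in each tumor pool, each divided by its own mean over the 8 pools (y axis, log2). Lines join the pools of a group. In both B16 KO pools the GIMAP sum (black) lay between the T cell and NK cell sums above it and the endothelial sum without *Eng* (light purple, 106 and 86.4 RPM) below it, and in the LLC KO pools the GIMAP, T cell, NK cell and full endothelial sums were at their lowest.

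The members did not all follow one course over the 8 libraries. Each profile was taken as log2(RPM + 0.5) minus its own mean, and likeness as the root mean square difference between profiles, as a description over 8 libraries that share depth and composition. *Gimap6* and *Gimap1* (0.149), *Gimap4* and *Gimap6* (0.158) and *Gimap4* and *Gimap1* (0.167) were the pairs most alike, and *Gimap8* was within 0.176 to 0.219 of these 3 genes. *Gimap5* came next, at 0.269 from *Gimap8*. *Gimap3* and *Gimap7* were no nearer than 0.573 and 0.557 to any member, and *Gimap9* no nearer than 0.793. *Gimap3* and *Gimap5*, the pair most alike in sequence, were 0.722 apart.

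The genes nearest to the mean profile of the family were *Pcdh1* (0.0893), *AW112010* (0.16), *Spint2* (0.174), *Trbc1* (0.185), *Phf11c* (0.212), *Exoc3l2* (0.215), *Txk*, *Mfng* and *Lax1* (0.219 each) and *Nos3* (0.226). This list mixes T cell genes, such as the T cell receptor chain *Trbc1* and the kinase *Txk*, with the endothelial nitric oxide synthase *Nos3*. The level of *Pcdh1*, a protocadherin, was 15.15 and 13.8 RPM in B16 WT, 10.35 and 11.85 RPM in B16 KO, 18.5 and 14.1 RPM in LLC WT, and 3.05 and 5.85 RPM in LLC KO.

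Taken singly, a look added after the data had been seen, the members had different neighbors. Outside the family, *Gimap6* was nearest to the matrix metalloproteinase gene *Mmp15* (0.106) and *Gimap1* to *Tmem88* (0.139), and both were also among the 5 nearest genes of *Gimap4*. *Gimap5* was nearest to *Exoc3l2* and *Mfng* (0.161 each) and to the angiopoietin gene *Angpt2* (0.177). *Gimap7* was nearest to *Trbc2* (0.157), a T cell receptor chain. *Gimap3* was nearest to *Il2rb* (0.304), *Nkg7* (0.362) and *Tbx21* (0.383), which code for an interleukin receptor chain, a granule protein of cytotoxic cells and a transcription factor of T and NK cells, but none of these was close. *Gimap9* was nearest to *Ovgp1* (0.154), *Ifrd1* (0.167) and *Lysmd2* (0.168), none of which is a marker of either cell type.

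Distances to the mean profiles of the marker lists also separated the members, though not for every member as its nearest genes did. *Gimap7* was 0.281 from the T cell list, 0.290 from the NK cell list and 0.985 from the blood endothelial list. *Gimap3* was 0.465 from the NK cell list, 0.597 from the T cell list and 0.827 from the endothelial list. *Gimap4* and *Gimap6* were nearest to the endothelial list (0.399 and 0.358) and farther from the NK cell (0.458 and 0.454) and T cell lists (0.545 and 0.497). *Gimap8* and *Gimap1* lay about equally far from all 3 lists, at 0.387 to 0.467. *Gimap5* was nearest to the T cell list (0.364) and farther from the endothelial list (0.555), although *Angpt2* was among its nearest single genes. *Gimap9* was nearest to the lymphocyte list (0.341) and the pan-leukocyte list (0.357), not far below its distance of 0.472 from a flat profile. Low values are compressed by the added 0.5 RPM, among them those of *Gimap7*, *Gimap1*, *Gimap5* and *Gimap3* in the LLC KO pools.

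**Figure D5:**
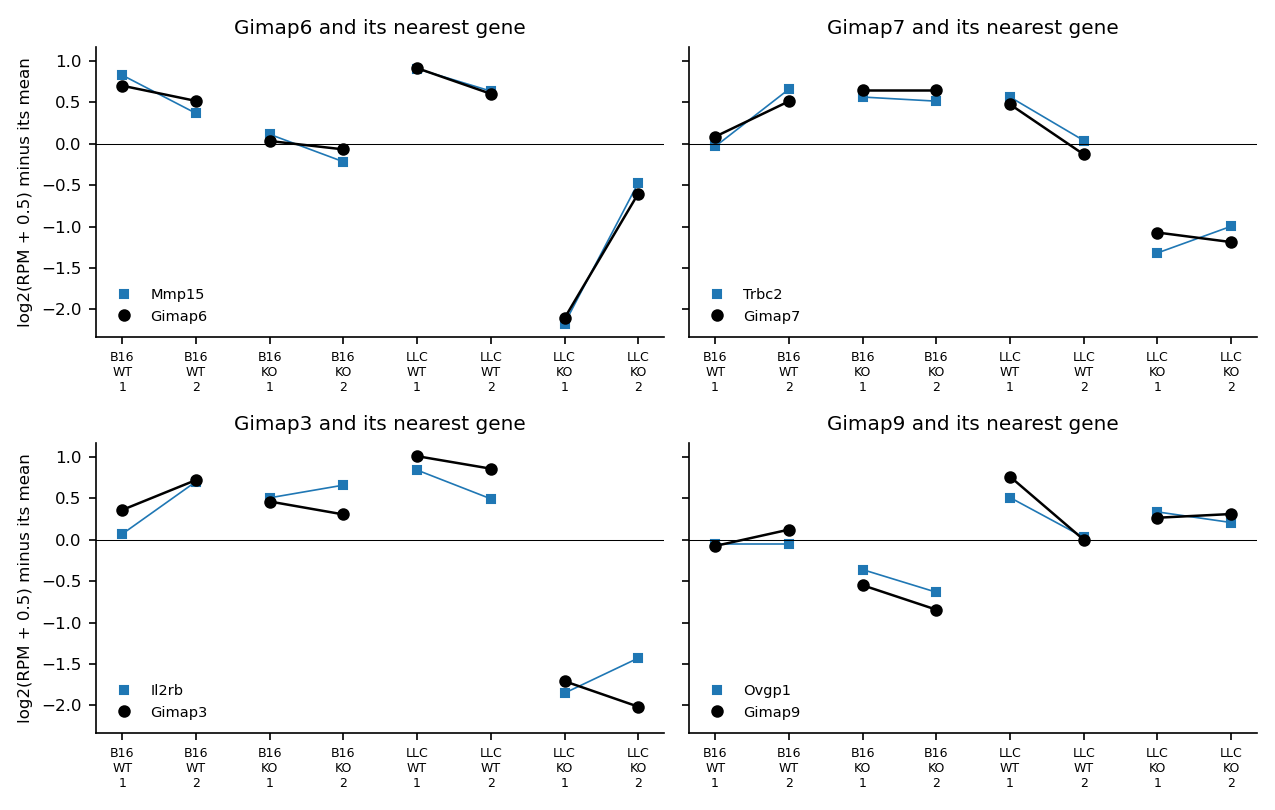
Profiles over the 8 pools (y axis, log2(RPM + 0.5) minus the mean of the gene) of *Gimap6*, *Gimap7*, *Gimap3* and *Gimap9* (black circles), each with its nearest gene outside the family (squares), which are *Mmp15*, *Trbc2*, *Il2rb* and *Ovgp1*. Lines join the pools of a group. The LLC KO pools lie apart from each other for *Gimap6* (1.35 and 4.75 RPM) and close together for *Gimap7* (0.15 and 0.1 RPM) and *Gimap3* (0.8 and 0.55 RPM), and *Gimap9* is lowest in the B16 KO pools (2.2 and 1.7 RPM).

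The partner list holds genes whose products are reported to bind GIMAP proteins or act with them, and close relatives of these genes. Most of them did not pass the test. All 10 genes of this list, called partner genes here, were tested, from the Gabarap autophagy proteins to the Bcl2 family of apoptosis regulators. In LLC 2 were higher and 2 lower in KO hosts, with a median of 0.10, beside 15.1% of all genes higher and 23.1% lower. *Gabarapl1* was at 62.6 and 66.2 RPM in WT and at 94.65 and 98.05 RPM in KO (0.58, limma, adjusted p = 0.00153), and *Gsk3b*, a kinase, rose by 0.44 (limma, adjusted p = 0.00372). The proapoptotic *Bax* fell by 0.48 (limma, adjusted p = 0.0159) and the antiapoptotic *Mcl1* fell by 0.25 (limma, adjusted p = 0.0375). *Gabarapl2*, the partner of Gimap6, was at 48.65 and 40.65 RPM in WT and at 46.35 and 46.85 RPM in KO (0.07, limma, adjusted p = 0.622). In B16 no partner gene was called (limma, median 0.06, 2 of 10 at an unadjusted p under 0.05, against 9.81% of all genes). The 2 decreases depended on the libraries and the processing, with 0 genes lower when LLC was fitted alone or without the first LLC WT pool or the second LLC KO pool, and 1 lower without the first LLC KO pool, without either B16 WT pool, without a filter, or with TMM or median of ratios scaling. Without the first pools of B16 WT and LLC KO no partner gene was called in either direction.

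Genes of lymphocyte survival, quiescence and homing were lower in part. Of 12 genes 11 were tested, and in LLC 6 were lower and 1 higher in KO hosts (median -0.79), against 23.1% of all genes lower and 15.1% higher. *Satb1*, a chromatin organizer of T cells, fell by 1.28 (limma, adjusted p = 0.00167), with 3.6 and 3.55 RPM in WT and 1.1 and 1.25 RPM in KO. *Il7r*, the receptor of the survival cytokine interleukin 7, fell by 1.2 (limma, adjusted p = 0.0333), *Klf2* by 1.07 (limma, adjusted p = 0.00686) and *S1pr1* by 0.81 (limma, adjusted p = 0.0146). *Klf2* and *S1pr1* are used by lymphocytes and by endothelium alike. *Foxo1*, a transcription factor of lymphocyte quiescence, fell by 0.79 (limma, adjusted p = 0.00516). The transcription factor *Ets1* rose by 0.52 (limma, adjusted p = 0.00744), from 125.85 and 104.7 RPM in WT to 171.35 and 159.15 RPM in KO. These levels were far above the summed T cell markers, at 3.1 to 22.6 RPM over the 8 libraries. Which cells carried the *Ets1* transcripts was not tested. The higher call was lost without the first LLC KO pool and with LLC fitted alone. Without either the first LLC KO pool or the first LLC WT pool 3 genes were lower, with LLC alone 2 were, and without the first LLC KO and first B16 WT pools none was. In B16 none was called (limma, median -0.13, 1 of 11 at an unadjusted p under 0.05, against 9.81% of all genes). The fall of *Gimap3* by 2.80 was thus larger than that of any gene of this list in LLC.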

How the data were processed

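RNA from pools of 3 tumors was sequenced as paired reads after TruSeq RNA library preparation (kit strand setting not given in the sources used here). According to the submitters' processing notes, Trimmomatic, STAR and HTSeq were used with the GRCm38.p4 (mm10) build. Versions are not given there. The deposited values are scores, gene counts that the authors scaled to 20 M (M, 1000000) per library and rounded, so that count models were not used, and dividing them by 20 gave RPM. Depth was estimated from the spacing of low values, and in LLC KO replicate 1 it was set to the scaled total because no spacing was visible. Intervals on reads are exact binomial and cover counting error only.

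The test, on log2(RPM + 0.5) of genes reaching 1 RPM in 2 or more libraries, was limma 3.58.1 (R 4.3.3, intensity trend, 1 model of the 4 groups, 4 residual degrees of freedom), with Benjamini-Hochberg adjustment over the 14706 genes and a threshold of 0.05. The planned contrasts were the host effect in each tumor, their average and difference, and LLC minus B16. Alternatives were the pseudocount, the filter, TMM and median of ratios scaling, each tumor alone, robust moderation, a replicate block and leaving out libraries. The fit was tested on simulated data. The named genes were the 8 members, the flanking genes, the called partner and lymphocyte genes (up to 6 a list), the 3 highest markers of a list and the 10 genes nearest to the mean profile. *Cd3d*, *Cd3e*, *Sox17*, *Csf1r*, *Gabarapl2*, *Ddx3y* and the neighbors of single members were named after their values had been seen. Members and lists were chosen with earlier results of these data known. Promoters were read from RefSeq, and sequences were handled with Biopython 1.88 and Python 3.11.15. Labels name each library a separate pool, and no author comparison columns were used. A gene withheld for evaluation is not reported here.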

Additional observations from a re-analysis of the deposited data

Results flagged for a closer look

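The host difference of *Gimap3* was more negative in LLC than in B16, by -2.64 on the log2 scale (limma interaction, adjusted p = 0.00353). Both LLC KO pools lay below both LLC WT pools, as in 42.0% of all genes, and the B16 hosts overlapped. The host difference of *Gimap7* also differed between the tumors, by -1.66 (limma interaction, adjusted p = 0.0244). Both KO pools lay below both WT pools in LLC (42.0% of all genes) and above them in B16 (16.1% of all genes). It rests on about 5 reads in the LLC KO pools. Sex enters the differences of both genes, since *Ddx3y* was read only in the LLC KO pools.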

How the results depend on the processing

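Counts of members called depended on the libraries. Leaving out each library in turn gave 6 to 7 members lower in LLC, 1 to 8 lower on average over both tumors, 1 to 5 lower and 0 to 1 higher for the difference of host effects, and 2 to 7 lower for LLC against B16. Over all genes the same omissions gave 1521 to 3181, 439 to 2825, 88 to 1664 and 5116 to 5696 lower genes in these comparisons. With at least 5 RPM required, only *Gimap3*, *Gimap4* and *Gimap6* were tested, and 3 were lower in LLC, 3 on average, 1 for the difference and 1 lower and 0 higher for LLC against B16. Without a filter, 1 member was lower on average and 1 for the difference. LLC fitted alone gave 2 members lower. Without B16 WT replicate 1 and LLC KO replicate 1, an alternative chosen after seeing the data, 1 member was lower in LLC, 0 on average and 0 for the difference, and 0 were higher for LLC against B16. In that setting *Gimap1* (0.09) and *Gimap5* (0.07) changed sign for LLC against B16 in WT hosts, without a call either way.

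Single-library omission also changed signs that were never called. *Gimap9* ranged from -0.47 to 0.29 for LLC hosts and *Gimap3* from -0.34 to 0.02 for B16 hosts. For LLC against B16 in WT hosts the ranges were -0.34 to 0.15 for *Gimap1*, -0.29 to 0.44 for *Gimap4*, -0.29 to 0.07 for *Gimap5*, -0.01 to 0.3 for *Gimap6*, -0.43 to 0.18 for *Gimap7*, -0.09 to 0.49 for *Gimap8* and -0.02 to 0.74 for *Gimap9*, which was called higher without LLC WT replicate 2. Of the 485 values of members under the other alternatives, 443 kept sign and side of the threshold, 38 lost a call, 2 gained one and 2 changed sign.

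The replicate numbers do not pair the libraries (correlations of -0.0301 to 0.308 between groups). A replicate block changed no call of a member, with 7 lower in LLC, and gave 3704 lower and 2301 higher genes in LLC. All-gene counts moved more. LLC alone gave 1104 lower and 1066 higher genes, against 3402 and 2226. On average over both tumors, 966 and 689 were called without a filter against 2192 and 1194, and 1234 (TMM) and 1211 (median of ratios) were lower. For the difference, 315 lower and 480 higher were called without a filter against 1037 and 1199. Without both doubted libraries 105 lower and 172 higher genes were called in LLC, 1 and 2 on average, and 0 and 2 for the difference. The share of called genes that were higher was 39.6% in LLC and 54.2% (TMM) or 54.1% (median of ratios), 35.3% on average against 58.3 and 59.1%, and 53.6% for the difference against 63.1 and 61.2%. Members at 2 or 3 reads in a pool (*Gimap7*, *Gimap1*, *Gimap5*) are limited by depth. The cause of these changes was not tested.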
